A study of Saccharomyces cerevisiae with 11 samples.

Results

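The heat shock proteins and molecular chaperones of budding yeast were followed through 33 genes, chosen by systematic name from a catalogue of the Hsp100, Hsp90, Hsp70, Hsp110, Hsp40 and small Hsp families, their cochaperones and the mitochondrial and endoplasmic reticulum (ER) chaperones. They were 33 of the 6834 features counted, and all 33 passed the filter on low counts and were among the 5456 features tested. By their known regulation 13 were grouped as stress-induced and 11 as constitutive, and 9 placed under neither alone formed a group of both kinds. The line between the classes is not sharp, since SSA1, counted as stress-induced, is also expressed without stress.

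Chaperones bind unfolded protein and keep it from aggregating. Hsp70 proteins bind and release clients in an ATP cycle that J-proteins start and nucleotide exchange factors reset, Hsp90 matures clients handed over by cochaperones, Hsp104 pulls proteins out of aggregates, and small Hsps hold misfolded proteins. In yeast the stress-induced genes are switched on by the heat shock factor Hsf1, which binds repeats of GAA and TTC called heat shock elements, and by Msn2 and Msn4, which bind the stress response element AGGGG. Many constitutive members work at the ribosome and are expressed together with the translation machinery.

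Abf1 is an essential general regulatory factor that binds promoter DNA through a zinc finger domain and carries long intrinsically disordered regions (IDRs). The question was how gene expression responds when nuclear Abf1 is lost or replaced by variants of its second disordered region, IDR2. Of the 11 libraries, 3 had no Abf1 (empty pRS315 plasmid), 2 had EM shuffle, 2 LS15, 2 NCS506 and 2 wild-type Abf1 on the plasmid. EM shuffle scrambles the essential motif of IDR2 and did not support growth in the study. LS15 scrambles another stretch of IDR2, and NCS506 carries scattered point mutations from random mutagenesis. Both supported slow growth.

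All cells were the BY4741 strain ABF1-aa-V5 clone A9, whose chromosomal Abf1 is FRB-tagged and leaves the nucleus on a ribosomal protein anchor when rapamycin is added. The strain is a single clone transformed separately for replicates, and the medium lacked leucine to keep the plasmid. Every library, the wild-type Abf1 controls included, received 8 µg/mL rapamycin, so no untreated cells were measured. The variants lack the first disordered region, whereas wild-type Abf1 is full length. Treatment lasted 75 min, except for 1 wild-type Abf1 library that was treated for 60 min and came from another batch. For that library, time, batch and replicate cannot be told apart.

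Total counts per library ran from 920044 (LS15 replicate 1) to 2195476 (NCS506 replicate 1), and the 33 genes held between 1.76% and 2.69% of the counts. Levels are given as CPM, read counts relative to library size, scaled by TMM, the trimmed mean of M-values, which evens out composition between libraries. The transcript of ABF1 itself (YKL112W) stood at 344, 405 and 379 CPM in no Abf1, at 261 and 404 CPM in EM shuffle, at 354 and 188 CPM in LS15, at 248 and 219 CPM in NCS506 and at 315 and 365 CPM in wild-type Abf1. Rapamycin moves the protein and not its mRNA, so this level does not check the depletion.

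Without nuclear Abf1, stress-induced chaperone genes rose and ribosome-associated ones fell. A gene was called at an adjusted p under 0.05 in edgeR (quasi-likelihood fit, Benjamini-Hochberg correction across the 5456 features). In no Abf1 against wild-type Abf1, 13 of the 33 genes were called higher, beside a background of 9.73% of all features, and 8 were called lower, beside 13.7%. The stress-induced class had 10 of 13 called higher and 1 lower, with a median log2 fold change of 0.99. The constitutive class had 0 of 11 called higher by edgeR or DESeq2 (1 at an unadjusted p under 0.05 in edgeR) and 6 lower, with a median of −0.77. The third class had 3 of 9 higher and 1 lower with a median of 0.21, and the median over all features was 0.02. In total RNA from a culture, a change in every cell and a change in the share of cells in a given state cannot be told apart.

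**Figure D1:**
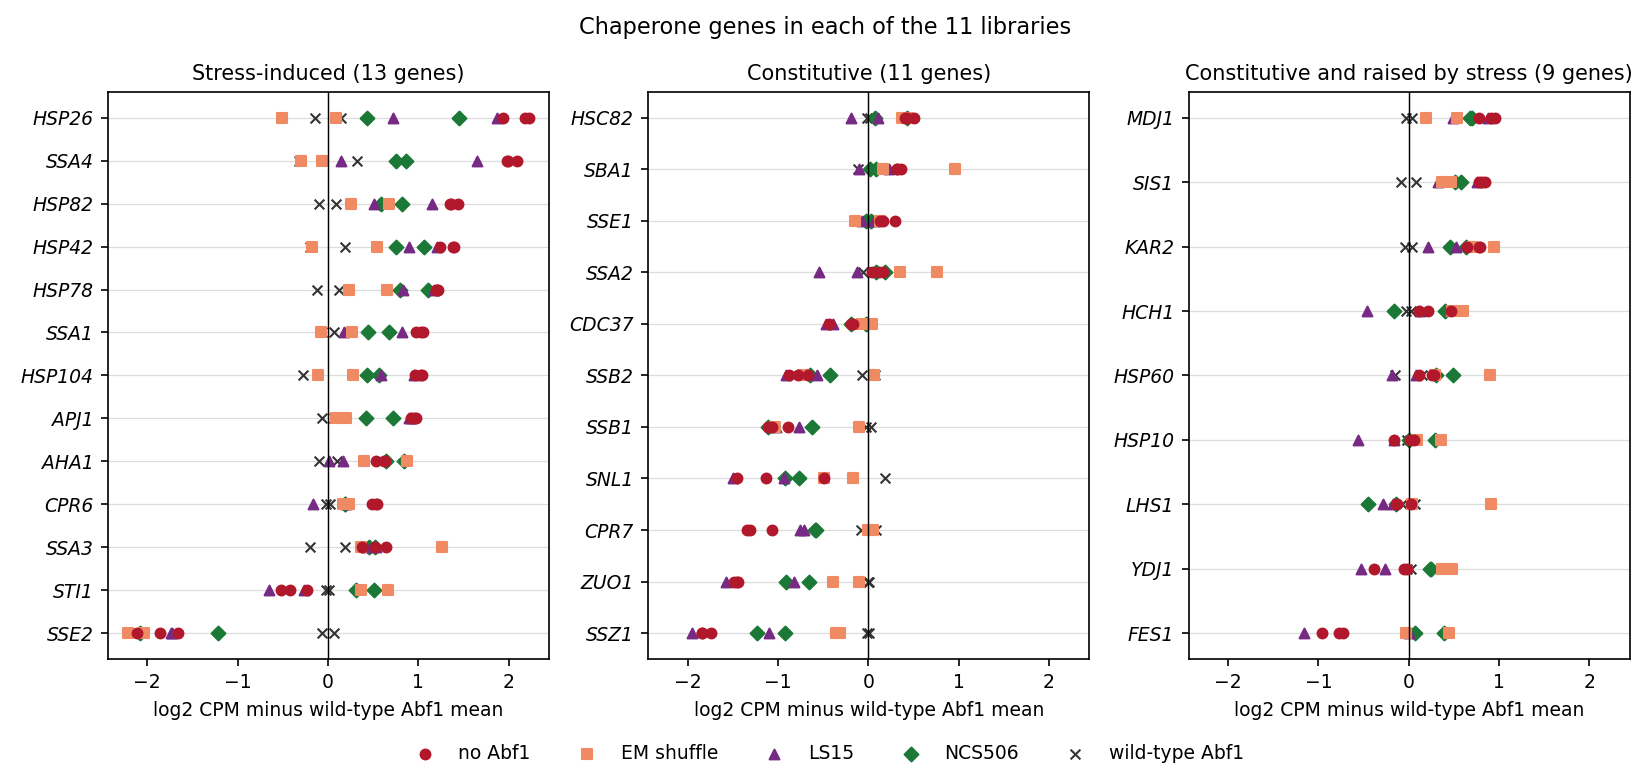
Each point is 1 library, placed by its log2 CPM minus the mean of the 2 wild-type Abf1 libraries, with 1 row per gene and 1 panel per class. The no Abf1 points lie right of 0 for most stress-induced genes, furthest for HSP26 and SSA4, while SSE2, SSZ1, ZUO1 and CPR7 lie left of 0.

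The steepest rises were in HSP26 and SSA4. HSP26 (YBR072W) encodes a small Hsp that co-aggregates with misfolded proteins. It was measured at 445, 529 and 544 CPM in no Abf1 and at 104 and 128 CPM in wild-type Abf1, a log2 fold change of 2.12 ± 0.37 (SE), adjusted p = 0.00256. SSA4 (YER103W), the strictly heat-inducible cytosolic Hsp70, had 835, 897 and 827 CPM in no Abf1, against 167 and 261 CPM in wild-type Abf1, a log2 fold change of 1.99 ± 0.36 (SE), adjusted p = 0.00291. HSP26 was 4.36-fold and SSA4 3.98-fold higher by the fit, and no library of either group crossed into the other.

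HSP82 (YPL240C), the stress-induced gene of the Hsp90 pair, stood at 2343, 2225 and 2217 CPM in no Abf1 and at 923 and 810.5 CPM in wild-type Abf1, a log2 fold change of 1.38 ± 0.23 (SE), adjusted p = 0.00199. HSP42 (YDR171W), a small Hsp that sorts misfolded proteins into cytosolic deposits, reached 1493, 1505 and 1346 CPM in no Abf1 and 652 and 499 CPM in wild-type Abf1, a difference of 1.33 on the log2 scale. The wild-type Abf1 values of HSP42 spread more than those of no Abf1 but stayed well below them. HSP104 (YLL026W), the cytosolic disaggregase, had 3983, 4041 and 3821 CPM in no Abf1, against 2367 and 1613 CPM in wild-type Abf1, a log2 fold change of 0.99 ± 0.23 (SE), adjusted p = 0.00935. Its mitochondrial counterpart HSP78 (YDR258C) had 938, 949.7 and 951 CPM in no Abf1 and 446 and 375 CPM in wild-type Abf1, a log2 fold change of 1.21. The 3 no Abf1 libraries were nearly level for all of these genes.

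SSA1 (YAL005C), a cytosolic Hsp70 that heat raises from an already high level, had 3582, 3523 and 3372 CPM in no Abf1 and 1638 and 1803 CPM in wild-type Abf1, a log2 fold change of 1.02. APJ1, a J-protein gene linked to disaggregation, had 313, 318 and 305 CPM in no Abf1, against 169 and 154 CPM in wild-type Abf1 (0.95). The Hsp90 cochaperone genes moved less. AHA1, which encodes the activator of the Hsp90 ATPase, had 202, 199 and 188 CPM in no Abf1 and 121 and 139 CPM in wild-type Abf1 (log2 fold change 0.59 ± 0.17 (SE), adjusted p = 0.0279). CPR6, a cyclophilin gene, had 410.1, 407 and 395 CPM in no Abf1 and 284 and 277 CPM in wild-type Abf1 (log2 fold change 0.53 ± 0.15 (SE), adjusted p = 0.026). The calls of AHA1 and CPR6 were lost when any 1 no Abf1 or wild-type Abf1 library was left out, with adjusted p up to 0.138 for AHA1 and 0.129 for CPR6 (edgeR), and that of HSP104 was lost without the 75 min wild-type Abf1 library (adjusted p = 0.059).

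Not every stress-induced gene rose. SSA3, the other heat-inducible Hsp70 gene, was at the bottom of the list by level per length in wild-type Abf1, with 59.2, 64.6 and 53.5 CPM in no Abf1 and 47.0 and 35.6 CPM in wild-type Abf1, and was not called (log2 fold change 0.53 ± 0.27 (SE), adjusted p = 0.178). STI1, whose product carries clients from Hsp70 to Hsp90, was not called either, with 342, 280.0 and 301 CPM in no Abf1 and 398 and 408 CPM in wild-type Abf1 (log2 fold change −0.39 ± 0.17 (SE), adjusted p = 0.123). SSE2 (YBR169C) was the exception in its class. It encodes the inducible Hsp110, a nucleotide exchange factor for Hsp70, and fell to 52.1, 62.8 and 72.0 CPM in no Abf1, against 242 and 219.9 CPM in wild-type Abf1, a log2 fold change of −1.89 ± 0.23 (SE), adjusted p = 0.000713. This was the largest decrease among the 33 genes and 3.7-fold by the fit.

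The promoters of the 33 genes were read to show which of the known elements they hold. Sequences of 400 bases upstream of each start codon came from the RefSeq R64 genome and were searched on both strands for heat shock elements of 2 units (GAANNTTC or TTCNNGAA), of 3 units (GAANNTTCNNGAA or TTCNNGAANNTTC, which contain the 2-unit form), for AGGGG and for the Abf1 consensus. A 3-unit element was found for 13 of the 33 genes, against 1.23% of 5866 protein-coding promoters, and 7 of these 13 were called higher and 1 lower. The list holds known heat shock genes, classed by their known regulation. A share of such elements above that of all promoters is therefore not an independent result. AGGGG was found for 12 of 33 (36.4%), against 29.2% of all promoters. It was in 9 of the 13 stress-induced, 2 of the 11 constitutive and 1 of the 9 genes of both kinds. Of the 12 genes with AGGGG, 9 were called higher and 2 lower, and of the 21 without it 4 higher and 6 lower. Over all features 9.73% were called higher and 13.7% lower. Examples from genes that rose are printed 5′ to 3′ on the strand of the gene with the 3-unit element in capitals. They lie at chrXII:88318-88346 (plus strand), chrIV:974465-974493 (minus), chrI:141770-141798 (minus), chrIV:806375-806403 (plus), chrXIV:619889-619917 (minus) and chrX:381114-381142 (plus), in the order printed.
HSP104: tttttccaGAATTTTCTAGAAgggttatt
HSP78: attttccaGAATGTTCTAGAAgtgttctt
SSA1: actttccaGAACATTCTAGAAagaaagca
HSP42: aagttctgGAAGGTTCGCGAAttgagaac
SIS1: gtttatatGAACGTTCCAGAAacttctgg
KAR2: ttttaataGAACCTTCTGGAAatttcacc
HSP26 and SSA4, which rose most, held a 2-unit element and AGGGG but no 3-unit match in this window. SSE2, which fell most, held the same combination. A 2-unit element was found for 24 of the 33 genes, against 29.4% of all promoters. Of these 24 genes, 12 were called higher and 3 lower, and of the 9 without it 1 was called higher and 5 lower. Of the 20 genes without a 3-unit element, 6 were called higher and 7 lower. A match describes letters and is not shown here to be a site in use.

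Of the 6 constitutive genes that fell, 4 encode chaperones of the ribosome. SSZ1 (YHR064C) and ZUO1 (YGR285C) encode the Hsp70-like and J-protein subunits of the ribosome-associated complex, which assists the nascent chain together with the Hsp70s Ssb1 and Ssb2. SSZ1 had 179, 169 and 168 CPM in no Abf1 and 610.1 and 600.4 CPM in wild-type Abf1, a log2 fold change of −1.82 ± 0.21 (SE), adjusted p = 0.000713. ZUO1 had 183, 179 and 185 CPM in no Abf1, against 506 and 501 CPM in wild-type Abf1, a log2 fold change of −1.46 ± 0.20 (SE), adjusted p = 0.00107. The 2 genes sat close together in both groups.

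SSB1 (YDL229W) had 1225, 1082 and 1046 CPM in no Abf1 and 2225 and 2304 CPM in wild-type Abf1 (−1.02 on the log2 scale). SSB2 (YNL209W) had 1311, 1215 and 1134 CPM in no Abf1 and 1977 and 2184 CPM in wild-type Abf1 (−0.77). These coding sequences are 97.5% identical, and 43.2% of 50-base windows in each occur elsewhere in the genome. Reads may thus have been split between them or left out of the counts, which was not tested. The calls of SSB1 and SSB2 were lost without the 75 min wild-type Abf1 library (adjusted p = 0.0593 and 0.126 by edgeR) and without some no Abf1 libraries, with adjusted p up to 0.059 for SSB1 and 0.102 for SSB2.

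CPR7, the partner cyclophilin gene of CPR6, fell to 16.0, 19.7 and 16.4 CPM in no Abf1, against 40.3 and 45.4 CPM in wild-type Abf1 (log2 fold change −1.30 ± 0.21 (SE), adjusted p = 0.00167), so that CPR6 and CPR7 moved in opposite directions. SNL1, a gene for an ER membrane protein that acts as an Hsp70 exchange factor, had 12.0, 9.37 and 19.5 CPM in no Abf1 and 31.9 and 24.4 CPM in wild-type Abf1 (log2 fold change −1.04 ± 0.33 (SE), adjusted p = 0.0378). It had as few as 8 counts in a library, and its call was lost when either wild-type Abf1 library, no Abf1 replicate 1 or 2 or either NCS506 library was left out, with adjusted p up to 0.159.

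The other 5 constitutive genes were not called. HSC82 (YMR186W), the constitutive Hsp90, had 2415, 2269 and 2292 CPM in no Abf1 and 1683 and 1728 CPM in wild-type Abf1 (log2 fold change 0.45 ± 0.18 (SE), adjusted p = 0.0952). SSA2, the constitutive cytosolic Hsp70, had 2019, 1961 and 1856 CPM in no Abf1 and 1733 and 1869 CPM in wild-type Abf1 (0.11), and the groups overlapped. SSE1, the constitutive Hsp110, had 2223, 1984 and 2033 CPM in no Abf1, against 1798 and 1827 CPM in wild-type Abf1 (0.20). The Hsp90 cochaperone genes SBA1, the yeast p23, and CDC37, which loads kinases, had log2 fold changes of 0.33 and −0.26.

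The Abf1 consensus was found upstream of 11 of the 33 genes, against 16.1% of all promoters, and of 6 of the 11 constitutive genes. Of the 11 genes with a match 0 were called higher and 6 lower (SSE2, SSB1, SSB2, SSZ1, SNL1 and FES1). Of the 22 without one 13 were called higher and 2 lower (ZUO1 and CPR7). The median log2 fold change was −0.77 with a match and 0.67 without, and over all promoters of tested genes −0.60 and 0.09. These are descriptions without a test. The matches in 4 genes that fell and in 2 that were not called are printed on the strand of the gene with the consensus in capitals, at chrII:576189-576217 (minus strand), chrVIII:227276-227304 (minus), chrIV:43819-43847 (plus), chrII:444872-444900 (minus), chrXVI:352521-352549 (minus) and chrXV:370998-371026 (minus), in the order printed.
SSE2: taccaaaaATCACATCATACGaggagttt
SSZ1: tttttcttCGTCGAATGTGATggtgaaat
SSB1: tatttatgATCATTTCGAACGggaagtat
FES1: agcttattCGTTTGAAATGATatacctct
SSE1: agcgcataATCATTTGTTACGtgtatttc
HSP10: gtaatgccCGTCATCAATGATagaaattt
SSE2 held another match 367 bases upstream, beyond the 347 bases that separate it from its neighbour NPL4. SSE1, STI1, CDC37, HSP60 and HSP10 held the consensus and were not called. SNL1 shares its upstream region with the divergent gene VID28, which was also called lower (log2 fold change −1.27, adjusted p = 0.0146 by edgeR), and SIS1 shares its own with LST8, which was called higher (1.15, adjusted p = 0.00377).

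**Figure D2:**
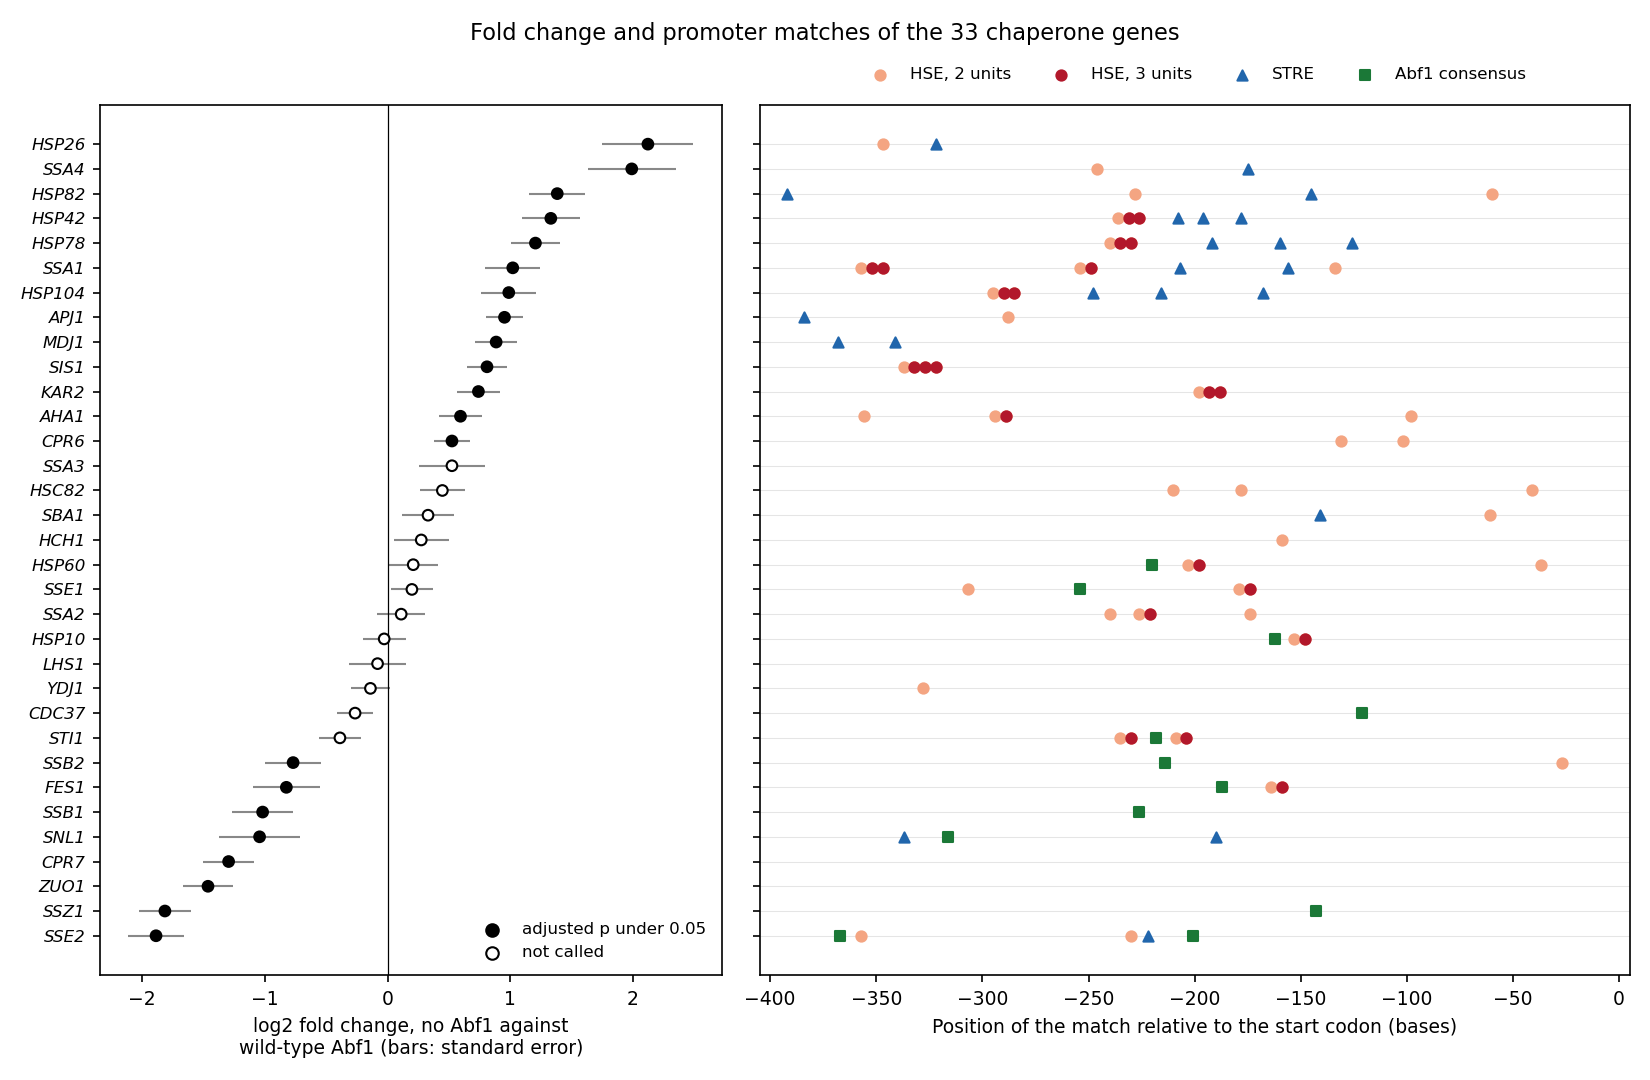
The left panel gives the log2 fold change of each gene in no Abf1 against wild-type Abf1 with its standard error, filled where adjusted p was under 0.05. The right panel marks the end of each motif nearest the start codon, within 400 bases upstream of it (HSE, heat shock element and STRE, AGGGG). Squares for the Abf1 consensus appear in no row with a filled point right of 0, and AGGGG triangles appear in 9 of the 13 such rows.

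The group of both kinds was mixed. MDJ1, the J-protein gene of the mitochondrial Hsp70, had 277, 312 and 302 CPM in no Abf1 and 164 and 157 CPM in wild-type Abf1 (log2 fold change 0.89 ± 0.17 (SE), adjusted p = 0.00411). SIS1, the gene of an essential cytosolic and nuclear J-protein, had 598, 587 and 571 CPM in no Abf1 and 352 and 315 CPM in wild-type Abf1 (0.81). KAR2, the gene of the ER Hsp70 BiP, had 1226, 1116 and 1229.6 CPM in no Abf1 and 693 and 732 CPM in wild-type Abf1 (log2 fold change 0.74 ± 0.17 (SE), adjusted p = 0.0109). All 3 stood above every wild-type Abf1 library in each no Abf1 library.

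FES1, the gene of another cytosolic exchange factor, went the other way with 85.2, 100.2 and 97.7 CPM in no Abf1 and 168 and 167 CPM in wild-type Abf1 (log2 fold change −0.83 ± 0.28 (SE), adjusted p = 0.0482). Leaving out any no Abf1, wild-type Abf1 or NCS506 library ended this call, with adjusted p between 0.059 and 0.164. LHS1, an ER exchange factor that works with KAR2, had 131, 118 and 117 CPM in no Abf1 and 136 and 123 CPM in wild-type Abf1 (−0.08) and the groups overlapped. YDJ1, the main cytosolic J-protein gene, had 297, 289 and 230.3 CPM in no Abf1 and 305 and 295 CPM in wild-type Abf1 (−0.14). The mitochondrial chaperonin genes HSP60 and HSP10 had log2 fold changes of 0.21 and −0.03, and HCH1, a relative of AHA1, had 0.27, all 3 without a call.

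Of the 21 calls, 14 held when each of the 11 libraries was left out in turn, and the count ran from 14 to 21. The lowest, 10 higher and 4 lower, came without the 75 min wild-type Abf1 library, and without no Abf1 replicate 2 it was 15. Without the 60 min wild-type Abf1 library, which leaves 1 rapamycin time and 1 batch, 11 genes were called higher and 6 lower. On the deposited TPM limma called 7 genes, and 10 with TPM scaled to equal sums. In fits with a single wild-type Abf1 library, that library is assumed to vary like the other groups.

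The paralog pairs showed how the balance between an inducible and a constitutive gene shifted, and for this the levels were taken per kilobase of coding length. HSP82 stood at 1100.1, 1045 and 1041 CPM per kb and HSC82 at 1140.5, 1071 and 1082 CPM per kb in no Abf1. In wild-type Abf1, HSP82 stood at 433 and 381 CPM per kb and HSC82 at 795 and 816 CPM per kb. The log2 ratio of HSP82 to HSC82 was −0.05, −0.04 and −0.06 in no Abf1 and −0.87 and −1.10 in wild-type Abf1. The Hsp90 pair thus had nearly equal levels without Abf1, whereas HSC82 was the higher gene in wild-type Abf1. The log2 ratio was 0.06 and −0.29 in LS15, −0.59 and −0.47 in NCS506 and −0.68 and −1.18 in EM shuffle. Their coding sequences are 91.7% identical, but 6.4% or less of the 50-base windows of either occur elsewhere.

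For the Hsp70 pair SSA1 and SSA2 the log2 ratio per length was 0.82, 0.84 and 0.85 in no Abf1 and −0.09 and −0.06 in wild-type Abf1. These genes are 96.4% identical with 57.9% and 58.2% of 50-base windows repeated, so their split and their levels are uncertain. SSA4 to SSA2 had log2 ratios of −1.28, −1.13 and −1.17 in no Abf1, against −3.38 and −2.85 in wild-type Abf1. The SSA2 level carries the same uncertainty here, whereas 0% of the SSA4 windows are repeated. On the deposited TPM the means of SSA4 and SSA2 were 10.5 and 40.4 in no Abf1 and 3.2 and 41.0 in wild-type Abf1. The Hsp110 pair turned the other way, with log2 ratios of SSE2 to SSE1 of −5.41, −4.98 and −4.82 in no Abf1 and −2.89 and −3.05 in wild-type Abf1. In each of these 4 pairs no library of one group crossed into the other. For 8 such ratios the groups were compared. With 3 against 2 libraries an exact two-sided permutation test cannot go below p = 0.2, so none can pass a threshold of 0.05. Each of the 4 reached this floor. So did SSA3 to SSA2, SSB1 to SSB2 and CPR6 to CPR7, so the floor does not set the 4 apart. In LS15 and NCS506 the ratios of SSA1 and of SSA4 to SSA2 also lay above wild-type Abf1. In EM shuffle both lay below it (mean log2 differences −0.46 and −0.74).

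**Figure D3:**
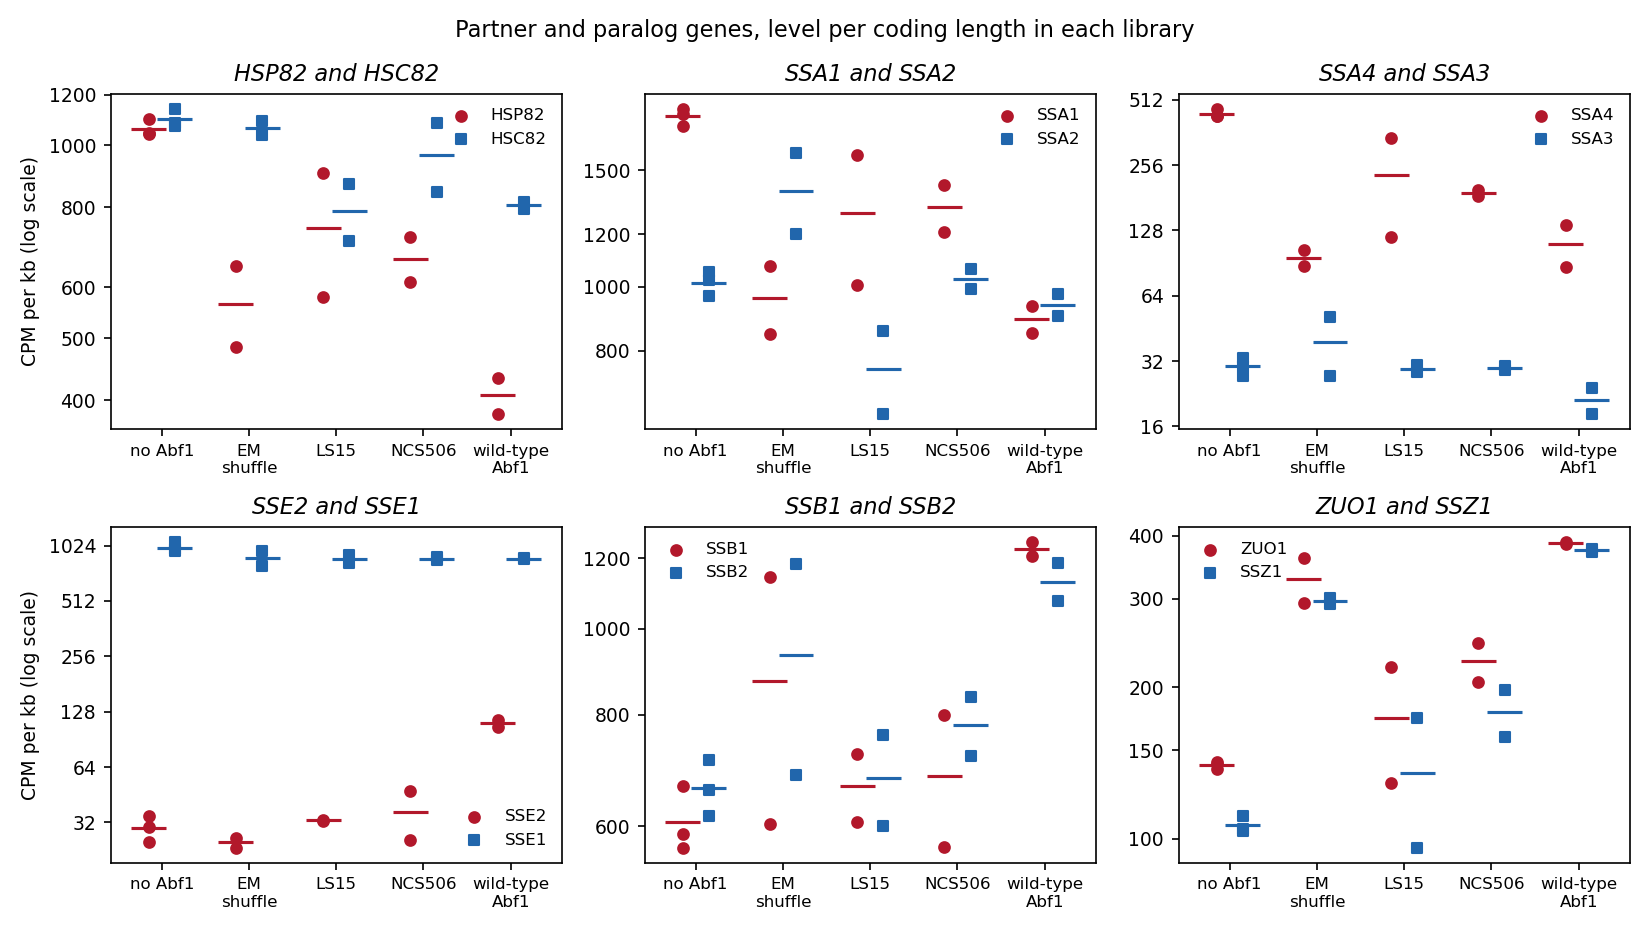
Levels in CPM per kb of coding length on a log axis are shown for each library by condition, with a bar at the group mean, for 6 pairs of genes that are paralogs or partners. HSP82 reaches the level of HSC82 in no Abf1, SSE2 is low in every condition but wild-type Abf1 while SSE1 stays high, and ZUO1 and SSZ1 run together.

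By level per length the order of the genes changed as well. In wild-type Abf1, SSB1 and SSB2 led with means of 1229 and 1129 CPM per kb, followed by SSA2 (938), SSA1 (892), SSE1 (870) and HSC82 (805). In no Abf1, SSA1 led with 1810 CPM per kb, followed by HSP104 (1448), HSP42 (1284), HSC82 (1098) and HSP82 (1062), and SSB2 and SSB1 were 9th and 10th. Some neighbours in these orders were close. Within each library the log2 ratio of HSP82 to HSC82 was −0.05, −0.04 and −0.06 in no Abf1. That of SSA1 to SSA2 was −0.09 and −0.06 in wild-type Abf1, so these ranks rest on small differences. On the deposited TPM the first 6 genes in wild-type Abf1 kept this order, whereas in no Abf1 SSA2, 6th by CPM per kb, was 2nd behind SSA1 and ahead of HSP104 and HSP42. SSB2 and SSB1 were 8th and 9th there. In wild-type Abf1 SSB1 had means of 1229 CPM per kb and 44.8 TPM, and SSE1, without repeated windows, 870 and 23.9. The counts of SSA1, SSA2, SSB1 and SSB2 may thus be low beside those of other genes, which was not tested.

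The contrast of the 2 classes was then taken through the constructs. In each library the median of the stress-induced genes, as log2 CPM minus the wild-type Abf1 mean, was set against that of the constitutive genes. The difference was 1.69, 1.81 and 1.45 in no Abf1, 0.42 and 0.21 in EM shuffle, 1.68 and 1.00 in LS15, 1.31 and 0.87 in NCS506 and 0.08 and −0.08 in wild-type Abf1. The 2 wild-type Abf1 values mirror each other by construction, since their own mean was subtracted. The means were 1.65 ± 0.18 (SD, n = 3) in no Abf1, 0.32 ± 0.15 in EM shuffle, 1.34 ± 0.48 in LS15 and 1.09 ± 0.31 in NCS506 (SD, n = 2 each). By these means, which leave out the group of both kinds, EM shuffle lay nearest to wild-type Abf1, and LS15 and NCS506 nearer to no Abf1. For NCS506 that placement depended on the classes. With the group of both kinds counted as constitutive, the fitted difference against wild-type Abf1 was 1.04 in no Abf1, −0.10 in EM shuffle and 0.49 in NCS506, so that NCS506 was nearer to wild-type Abf1. These medians are descriptions of a chosen list and were not tested. All 4 comparisons share the same 2 wild-type Abf1 libraries. Replicates agreed least in EM shuffle and wild-type Abf1, with a chi-square per degree of freedom on the counts of 24.2 and 21.7. It was 6.11 in LS15, 6.43 in NCS506 and between 1.25 and 2.06 among the no Abf1 libraries. The edgeR fit estimated the spread over all groups together.

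**Figure D4:**
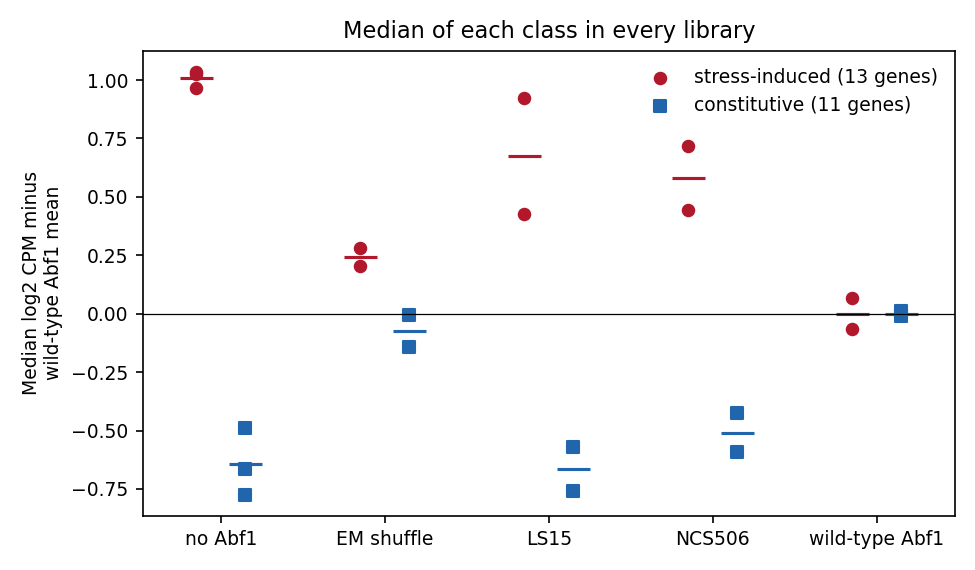
Points are the median over the 13 stress-induced and the 11 constitutive genes of log2 CPM minus the wild-type Abf1 mean in each library, and bars are group means. The 2 classes stand about 1.65 apart in no Abf1, widely apart in LS15 and NCS506, and close together in EM shuffle.

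In EM shuffle against wild-type Abf1, 1 of the 33 genes was called higher, beside 0.678% of all features, and 1 lower, beside 1.56%. The higher one was KAR2, with 1367 and 1156 CPM in EM shuffle and 693 and 732 CPM in wild-type Abf1 (log2 fold change 0.82 ± 0.19 (SE), adjusted p = 0.046). The lower one was SSE2, with 48.7 and 55.2 CPM in EM shuffle against 242 and 219.9 CPM in wild-type Abf1 (−2.15 ± 0.25 (SE), adjusted p = 0.00426). The SSE2 values of EM shuffle overlapped those of no Abf1. Leaving out 1 library gave 1 to 5 calls, with 5 without either EM shuffle library. SSE2 kept its call throughout, and that of KAR2 was lost without any one of 8 libraries, with adjusted p up to 0.207 without the 60 min wild-type Abf1 library. A fit of only these 4 libraries called neither gene. In the fit of all libraries 13 of the 33 genes had an unadjusted p under 0.05 (edgeR), beside 999 of the 5456 features. All 9 genes of the group of both kinds were above 0, with a median log2 fold change of 0.43. So were 10 of the 13 stress-induced genes and 5 of the 11 constitutive genes.

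The genes that led the rise without Abf1 were not called in EM shuffle. HSP26 had 123 and 81.0 CPM, SSA4 169.6 and 200.3 CPM and HSP104 2379 and 1817 CPM in EM shuffle, with log2 fold changes of −0.19, −0.21 and 0.08 against wild-type Abf1. SSZ1 had 473 and 487 CPM and ZUO1 383 and 470.0 CPM in EM shuffle (−0.33 and −0.24 against wild-type Abf1). SSB1 and SSB2 were split between the 2 libraries, with 1110.0 and 2106 CPM and 1263 and 2178 CPM. Replicate 1 was at the level of no Abf1 for this pair and replicate 2 near wild-type Abf1. Replicate 2 was also the higher library for SBA1 and LHS1, and the lower one for SSA3 (100.1 and 53.1 CPM).

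In LS15 against wild-type Abf1, 6 of the 33 genes were called higher, beside 4.47% of all features, and 5 lower, beside 6.76%. The higher ones were HSP26 with 425 and 191 CPM in LS15 (1.39 on the log2 scale against wild-type Abf1), HSP42 with 1316 and 1064 CPM (1.05) and HSP78 with 925 and 729 CPM (1.01). APJ1 with 306 and 302 CPM (0.92), HSP82 with 1932 and 1235 CPM (0.87) and MDJ1 with 296 and 227 CPM (0.69) made up the rest. Small Hsps, a disaggregase, an Hsp90 and J-proteins were thus among them, and no Hsp70 gene was. SSA4 had 660.3 and 231 CPM in LS15 (1.04 ± 0.37 (SE), adjusted p = 0.0875), SSA1 3046 and 1942 CPM and HSP104 3788 and 2943 CPM. In most of these genes replicate 1 was the higher library, by more than 2-fold in HSP26 and SSA4.

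The 5 lower genes in LS15 were SSE2 with 68.6 and 68.3 CPM (log2 fold change −1.75), SSZ1 with 155 and 281 CPM (−1.46) and ZUO1 with 168 and 285 CPM (−1.14). SNL1 with 9.0 and 14.0 CPM (−1.22) and CPR7 with 24.7 and 25.6 CPM (−0.76) completed them. The adjusted p of the 11 calls ran from 0.0131 to 0.0498 (edgeR, Benjamini-Hochberg), and none of the 11 held whenever a library was left out. Without LS15 replicate 1, the shallowest library, no gene passed (0 calls by edgeR), although 9 had an unadjusted p under 0.05. Without the 75 min wild-type Abf1 library 2 were called, without any 1 of the no Abf1 libraries 5, and without the 60 min wild-type Abf1 library or either NCS506 library 7. The count was 12 without LS15 replicate 2 and 15, 8 higher and 7 lower, without either EM shuffle library. Fitted on their own, these 4 libraries gave 0 calls with 16 genes at an unadjusted p under 0.05, against 12 calls by DESeq2 on all libraries.

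In NCS506 against wild-type Abf1, 0 of the 33 genes were called higher, beside 0.055% of all features, and 1 lower, beside 0.532%. That gene was SSE2, with 98.3 and 53.6 CPM in NCS506 and 242 and 219.9 CPM in wild-type Abf1 (log2 fold change −1.59 ± 0.24 (SE), adjusted p = 0.028). It lost its call in 5 of the fits with a library left out, with adjusted p up to 0.189 without the 60 min wild-type Abf1 library. SSE2 was thus below wild-type Abf1 in every library of the other 4 conditions, and these comparisons share their wild-type Abf1 libraries.

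The other 32 genes did not pass the test in NCS506, with 17 of the 33 at an unadjusted p under 0.05 by edgeR. HSP78 had 883 and 712 CPM in NCS506 (log2 fold change 0.96 ± 0.21 (SE), adjusted p = 0.0672 against wild-type Abf1), HSP42 1191 and 964 CPM, HSP26 318 and 157 CPM and SSA4 381 and 354 CPM. HSP82 had 1531 and 1303 CPM and SSA1 2749 and 2336 CPM in NCS506, and both libraries of each gene lay above wild-type Abf1. SSZ1 had 257 and 319.9 CPM (−1.07 ± 0.23 (SE), adjusted p = 0.0672) and ZUO1 267 and 319 CPM in NCS506. By sign, 12 of the 13 stress-induced genes were above 0 and 8 of the 11 constitutive genes below it, with 2763 of 5456 features above 0 overall. DESeq2 called 8 of the 33 genes in NCS506 against wild-type Abf1, 4 higher and 4 lower, and edgeR called 9 without either EM shuffle library.

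Set against no Abf1, EM shuffle differed in 15 of the 33 genes, 6 higher beside 12.9% of all features and 9 lower beside 11.1%. The lower genes were the stress-induced HSP26 (−2.31 ± 0.37 (SE), adjusted p = 0.00325), SSA4 (−2.21 ± 0.36 (SE), adjusted p = 0.00343), HSP42 (−1.11), HSP104 (−0.91), HSP82 (−0.91), SSA1 (−0.91), APJ1 (−0.81) and HSP78 (−0.75), with MDJ1 (−0.51) from the group of both kinds. The higher genes were SSZ1 (1.48 ± 0.21 (SE), adjusted p = 0.00227), CPR7 (1.31), ZUO1 (1.22), FES1 (1.05), STI1 (0.91) and YDJ1 (0.57). SSE2 was not called between EM shuffle and no Abf1 (−0.26 ± 0.24 (SE), adjusted p = 0.459). STI1 had 520.3 and 638 CPM and YDJ1 387 and 420.0 CPM in EM shuffle, both above every no Abf1 library. CPR7 had 44.3 and 42.6 CPM and FES1 164 and 229 CPM. The count ran from 9 to 21 when a library was left out, with 9 without EM shuffle replicate 2, no Abf1 replicate 2 or no Abf1 replicate 3, and 8 of the 15 calls held throughout. On the deposited TPM, tested by limma without rescaling, HSP78, HSP104, HSP82, APJ1, MDJ1 and SSA1 turned to above 0 in EM shuffle, where the median of all features was also shifted by 0.66. With TPM scaled to equal sums 8 genes were called.

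No gene passed the test between LS15 and no Abf1. In LS15 against no Abf1, 0 of the 33 genes were called, beside 0.0% of all features in each direction. By edgeR 8 genes had an unadjusted p under 0.05, and DESeq2 also called 0. A p that misses the threshold does not show equal levels, and 12 of the 13 stress-induced genes were lower in LS15 by the fit, with a median log2 fold change of −0.28. In NCS506 against no Abf1, 1 gene was called higher, beside 2.4% of all features, and 0 lower, beside 0.788%, with 12 genes at an unadjusted p under 0.05 by edgeR. It was STI1, with 574 and 502 CPM in NCS506 and 342, 280.0 and 301 CPM in no Abf1 (log2 fold change 0.81 ± 0.17 (SE), adjusted p = 0.0331). This call was lost when any NCS506 or no Abf1 library was left out, with adjusted p up to 0.185, DESeq2 called 5 genes, and edgeR 5 or 6 without any 1 EM shuffle or LS15 library. These comparisons share the 3 no Abf1 libraries.

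The transcription factors and neighbours of this system gave context. Of the regulators, HSF1 was called higher in no Abf1 against wild-type Abf1 (log2 fold change 0.97 ± 0.16 (SE), adjusted p = 0.00217), also in EM shuffle (0.74 ± 0.17 (SE), adjusted p = 0.0491) and in LS15 (1.04 ± 0.18 (SE), adjusted p = 0.0131), all by edgeR. In NCS506 it was not called by edgeR (0.71 ± 0.17 (SE), adjusted p = 0.0792) and was called by DESeq2 (adjusted p = 0.0403). The HSF1 call in EM shuffle was lost in 10 of 11 fits with a library left out, with adjusted p up to 0.293 without the 60 min wild-type Abf1 library, and in the fit of only the 2 groups (adjusted p = 0.442). In LS15 it was lost without LS15 replicate 1 (adjusted p = 0.0932) and in the fit of only the 2 groups (adjusted p = 0.0575). In no Abf1 it held whichever library was left out but not by limma on TPM (adjusted p = 0.259) or on scaled TPM (adjusted p = 0.17). MSN2, MSN4 and HAC1, the unfolded protein response factor, were not called by edgeR in any of the 4 conditions against wild-type Abf1. Of 10 other stress-induced genes 9 were called higher in no Abf1, beside 9.73% of all features, and 0 lower, beside 13.7%. The largest log2 fold changes were in HSP12 (2.92), which encodes a membrane-protecting small protein, DDR2 (2.29), a multistress response gene, and CTT1 (1.77), the cytosolic catalase. CUR1 was the one not called.

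Among 13 other J-proteins and Hsp90 cochaperones 0 were called in either direction by edgeR or DESeq2, with 3 higher and 3 lower at an unadjusted p under 0.05 in edgeR. Of 7 other mitochondrial chaperone genes 0 were called higher and 1 lower. This was MGE1, the exchange factor of the mitochondrial Hsp70, with a log2 fold change of −3.94 in no Abf1 against wild-type Abf1. Of 9 other ER folding genes 1 was called higher, the oxidase gene ERO1 (0.66), and 1 lower, SEC63 (−1.09), which encodes the J-protein of the ER translocon that works with KAR2. Over all features 9.73% were called higher and 13.7% lower in this comparison, so single calls in lists of 7 and 9 genes are near that share. PDI1, the protein disulfide isomerase gene, had a log2 fold change of −0.03 and was not called.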

How the data were processed

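RNA from 11 yeast cultures was sequenced. The deposited table held raw counts per feature and TPM for each library. Per the labels, the authors' processing notes name STAR, RSEM and the sacCer3 genome, and the counter and strand setting behind the count columns are not given in the sources used here. The TPM values deposited by the authors sum to 8.18% to 14.1% of the full scale in the features listed. Groups came from the labels, and replicates were separate clones.

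Counts were fitted with edgeR 4.0.16 (TMM, filterByExpr, quasi-likelihood test, 1 coefficient per condition over all 11 libraries) in R 4.3.3, and p-values were adjusted by Benjamini-Hochberg over 5456 features. The alternatives were limma 3.58.1 with a pseudocount of 1 on log2 TPM, DESeq2 1.42.0, other filters and scalings, fits of only the groups compared, a replicate block and each library left out. Scaling TPM to equal sums was chosen after seeing the data. The fit was tested on simulated data. All 33 genes were accounted for, with values per library for a fixed set and for every gene called in any of 7 comparisons, and from other lists up to 3 called genes in each direction. The members and lists were chosen with earlier results of these data known. Promoter windows were read from the RefSeq R64 genome with Biopython 1.88 in place of a promoter table. The total of 920044 to 2195476 counts per library sets the precision, and SNL1 had as few as 8 counts.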

Additional observations from a re-analysis of the deposited data

How the results depend on the processing

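Of 1148 values for single genes under the alternatives, 930 kept their direction and side of the threshold, 209 lost the call, 2 gained one and 7 changed sign. In no Abf1 against wild-type Abf1, HSP26, HSP42, HSP82, SSA4, SSE2, SSZ1 and ZUO1 kept their calls under all 18 alternatives. The cause of the changes listed here was not tested.

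By limma on log2(TPM + 1), 7 of the 33 genes were called in no Abf1, 26 in EM shuffle, 0 in LS15 and 25 in NCS506 against wild-type Abf1, and 25 in EM shuffle and 28 in NCS506 against no Abf1. On this scale the median log2 fold change of all features was itself 0.60 in EM shuffle and 0.56 in NCS506 against wild-type Abf1, and 0.66 and 0.65 against no Abf1. Of the 5456 features, this fit called 3193 higher and 20 lower in EM shuffle against wild-type Abf1, and 2902 and 12 in NCS506. Against no Abf1 it called 3996 higher and 71 lower in EM shuffle, and 4292 and 27 in NCS506. Against wild-type Abf1 it called 62 higher and 163 lower in no Abf1, and 1 and 2 in LS15. In EM shuffle against no Abf1 the sign turned for HSP78 (0.35), HSP104 (0.21), HSP82 (0.21), APJ1 (0.19), MDJ1 (0.54) and SSA1 (0.23). With TPM scaled to equal sums, an alternative chosen after seeing the data, the counts were 10, 0, 0 and 0 against wild-type Abf1, and 8 in EM shuffle and 3 in NCS506 against no Abf1. DESeq2 called 8 genes in NCS506 against wild-type Abf1 and 5 against no Abf1, and with no filter the counts were 3 and 5. TMM on protein-coding genes left 1 call in EM shuffle against wild-type Abf1. Fits of only the groups compared gave 0 in EM shuffle, LS15 and NCS506 against wild-type Abf1 and 13 in NCS506 against no Abf1.

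The stress-induced minus constitutive median in no Abf1 against wild-type Abf1 was 1.44 with the group of both kinds counted as stress-induced, 1.04 with it counted as constitutive, 1.46 by limma on TPM, 1.56 on scaled TPM and 1.51 with at least 10 counts in every library. In EM shuffle against wild-type Abf1 it was 0.41, −0.10 and 0.41 under the first 3 of these, in NCS506 0.49 with the group counted as constitutive, and in EM shuffle against no Abf1 −0.79 with the group counted as stress-induced and −1.08 by limma on TPM.

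With each library left out in turn, the genes called ran from 14 to 21 in no Abf1, 1 to 5 in EM shuffle, 0 to 15 in LS15 and 0 to 9 in NCS506 against wild-type Abf1, and from 9 to 21 in EM shuffle, 0 to 1 in LS15 and 0 to 6 in NCS506 against no Abf1. The class difference ran from 1.58 to 1.86, 0.18 to 0.44, 1.01 to 1.72 and 0.87 to 1.34 against wild-type Abf1, and from −1.81 to −0.96, −0.49 to −0.05 and −0.60 to −0.40 against no Abf1, in the same order. HSP10 in no Abf1 against wild-type Abf1, never called, ran from −0.072 without no Abf1 replicate 1 to 0.036 without no Abf1 replicate 3.

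Same-numbered libraries deviated together among the variants (correlations of 0.37 for NCS506 and EM shuffle, 0.24 for LS15 and EM shuffle and 0.18 for LS15 and NCS506) but not between a variant and no Abf1 (−0.16 to −0.046). The comparisons with shared numbers were those against no Abf1, so the numbers were not taken as pairs. With the replicate number as a block against no Abf1, 13 genes were called in EM shuffle, 0 in LS15 and 0 in NCS506. Genes with few counts, such as SNL1, are limited by depth.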
